A study of Mus musculus with 10 samples.

Results

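The genes described here encode the subunits of 2 rotary proton pumps, the mitochondrial ATP synthase (F-type) and the vacuolar ATPase (V-type). Their transcripts were measured in the hearts of female embryos of the mouse, 13.5 days post coitum. All probe sets annotated with a single gene symbol beginning with Atp5, or with Atp6v or Atp6ap, were taken, and the brightest of a gene's probe sets, by its mean over the 10 arrays, stood for the gene. This gave 17 F-type and 22 V-type genes, 39 of the 18193 genes on the arrays with a single symbol. One group of hearts was heterozygous for an Hccs knockout restricted to the heart (Hccs het KO), and the control hearts came from littermates. Each group had 5 biological replicates, and each replicate was the RNA of 4 to 5 pooled hearts hybridised to 1 Affymetrix array. Hccs is X-linked and encodes the lyase that joins haem to the mitochondrial cytochromes c and c1. A heterozygous female heart is therefore a mosaic of cells with and without it, and the Cre driver, the control genotype and any allele that both groups carry are not given in the sources used here.

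ATP synthase uses the proton gradient built by the respiratory chain to make ATP. Protons turn a ring of c subunits in the inner membrane, a central stalk carries the rotation into the catalytic head, a peripheral stalk holds the head still, and small membrane subunits help pairs of enzymes to shape the cristae. The vacuolar ATPase is built on the same plan but runs the other way: its peripheral V1 sector splits ATP, and its membrane V0 sector pumps protons into lysosomes and endosomes. Cardiomyocytes are rich in mitochondria and in ATP synthase, whereas the vacuolar ATPase is present in nearly every cell, with tissue-specific paralogues at several positions.

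Most ATP synthase transcripts had slightly lower signals in Hccs het KO hearts, nearly all by amounts that did not pass the test gene by gene, and those of the vacuolar ATPase showed no common direction. Of 17 F-type genes 15 had a negative log2 change, and the median of the 17 was -0.13 against 0.025 for all genes. Of 22 V-type genes 13 were negative, with a median of -0.017. In limma, with Benjamini-Hochberg adjustment across the 18193 genes, 1 F-type gene passed an adjusted p of 0.05 in the lower direction, where 0.945% of all genes did, and none passed in the higher direction, where 1.63% did. No V-type gene passed in either direction, against 2.58% of all genes. At an unadjusted limma p under 0.05, 11 F-type genes were lower and none higher, while 2 V-type genes were lower and 1 was higher. The shares over all genes at that level were 7.48% lower and 13.2% higher, 20.6% in all. The signals of all 5 knockout arrays lay below those of all 5 controls for 4 of the 17 F-type genes (1.92% of all genes) and for none of the V-type genes. They lay above for 1 V-type gene (3.86% of all genes) and no F-type gene. Over both directions 5.79% of all genes had groups that did not overlap.

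**Figure D1:**
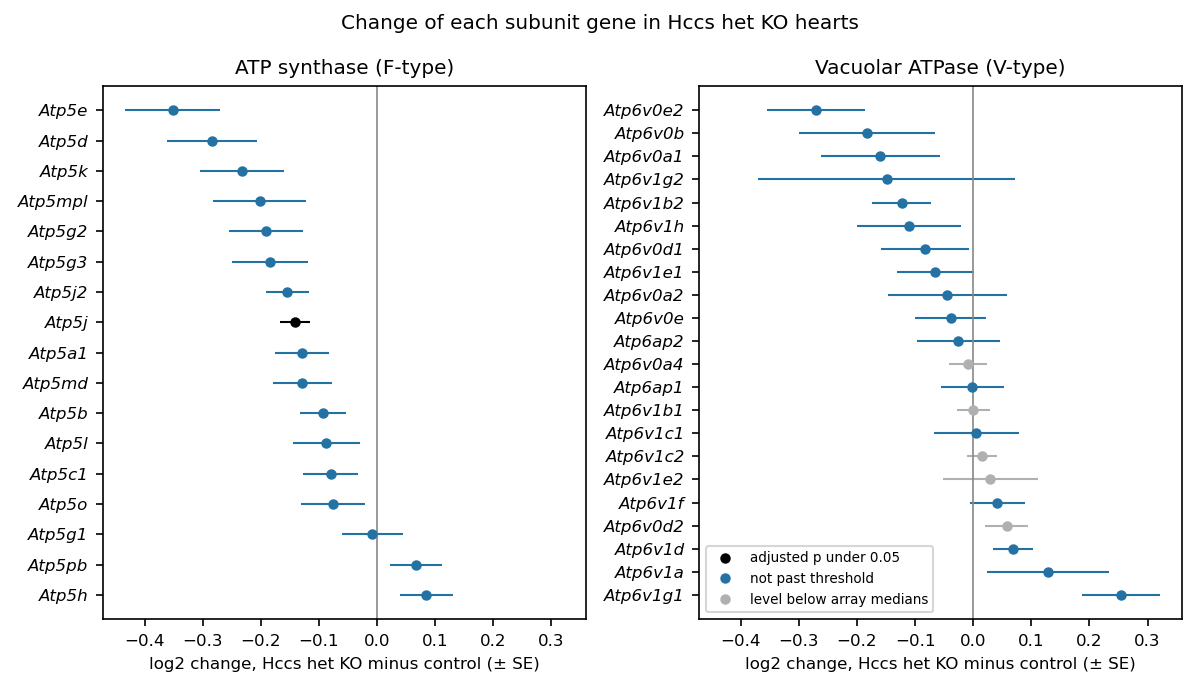
Log2 change (Hccs het KO minus control, horizontal axis) with its standard error for each F-type gene (left) and V-type gene (right), ordered by change, from limma on 5 arrays per group. F-type changes run from -0.35 to 0.084 with 15 of 17 below 0, and Atp5j alone passed the threshold. V-type changes run from -0.27 to 0.25 around 0.

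The F-type genes lie high on the signal scale, with means between 13.2 and 15.5 log2 units. The 374 other genes with a mean at least as high had a median log2 change of -0.023, and 57.8% of them were negative. Of these 374 genes 79 were lower and 79 higher at an unadjusted p under 0.05. After adjustment 13 were called lower and 14 higher. All knockout arrays lay below all controls for 29 of the 374 and above them for 25. Signals of different probe sets are not transcript amounts, so these figures only describe that part of the signal scale. They are not a test of the ATP synthase genes.

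The clearest difference was that of Atp5j, subunit F6 of the peripheral stalk. Its log2 signals were 13.48, 13.45, 13.41, 13.44 and 13.45 in the Hccs het KO arrays 1 to 5 and 13.59, 13.58, 13.56, 13.59 and 13.62 in the control arrays 1 to 5. Every knockout pool lay below every control pool, with a spread of 0.023 in the knockouts and 0.022 in the controls (SD, n = 5 each). Atp5j fell by 9.31%. On the log2 scale this was -0.14 with a standard error of 0.026, and the limma adjusted p was 0.0292. The call was lost in 8 of 10 fits with 1 array left out, where the adjusted p reached at most 0.0734 and the log2 change ran from -0.15 to -0.13. It was kept without Hccs het KO replicate 1 and without control replicate 5. Over all 23 alternatives its adjusted p ran from 0.0153 to 0.135 and the call was lost in 16. With either filter on low levels (0.108 and 0.0886) and with trended, robust eBayes (0.0686) Atp5j did not pass, and the 1 F-type call there was Atp5e.

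The other peripheral stalk genes did not share this pattern. Atp5pb (subunit b) had a log2 change of 0.067 (SE 0.044), Atp5h (subunit d) of 0.084 (SE 0.046), and Atp5o, which joins the stalk to the head and confers sensitivity to oligomycin, of -0.076 (SE 0.054). Atp5h, the brightest F-type gene, had log2 signals of 15.50, 15.56, 15.52, 15.61 and 15.50 in the knockout arrays and 15.38, 15.59, 15.42, 15.42 and 15.46 in the controls. The groups overlapped through control replicate 2. A second Atp5h probe set pointed down, with every knockout array below every control (log2 change -0.14, SE 0.047, limma adjusted p = 0.147 over all probe sets with a single symbol), so the direction of Atp5h depends on the probe set.

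By their brightest probe sets, central stalk genes had the most negative changes of the complex, and neither passed the threshold. Atp5e, the epsilon subunit, measured 13.24, 13.11, 13.08, 13.02 and 12.73 in the Hccs het KO arrays, against 13.35, 13.39, 13.40, 13.37 and 13.45 in the controls. The groups did not overlap, and the knockout arrays were far more spread (SD 0.19 against 0.038, n = 5 each). Its log2 change was -0.35 (SE 0.082, limma adjusted p = 0.0553), a change of -21.6%. Over the alternatives the adjusted p of Atp5e ran from 0.0209 to 0.185, with 0.0306 and 0.0477 under the filters on low levels and 0.0395 under trended, robust eBayes. Atp5d, the delta subunit, stood at 13.67, 13.43, 13.23, 13.43 and 13.52 in the knockouts and at 13.74, 13.62, 13.77, 13.72 and 13.85 in the controls. Knockout replicate 1 was above control replicate 2 and the groups overlapped (log2 change -0.28, SE 0.078, limma adjusted p = 0.0871). A second probe set of Atp5d, nearly as bright, gave a smaller change of -0.12 (SE 0.065). The gamma subunit Atp5c1, the rotor shaft, had a log2 change of -0.080 (SE 0.047).

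In the catalytic head both genes had negative changes that did not pass. Atp5a1, the alpha subunit, had a log2 change of -0.13 (SE 0.047), with all knockout arrays (14.57 to 14.80) below all controls (14.81 to 14.91). Atp5b, the catalytic beta subunit, had a change of -0.093 (SE 0.040). A second bright probe set of Atp5a1 gave a log2 change of -0.21 (SE 0.050), also without overlap. Another, far dimmer one gave 0.058 (SE 0.22).

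**Figure D2:**
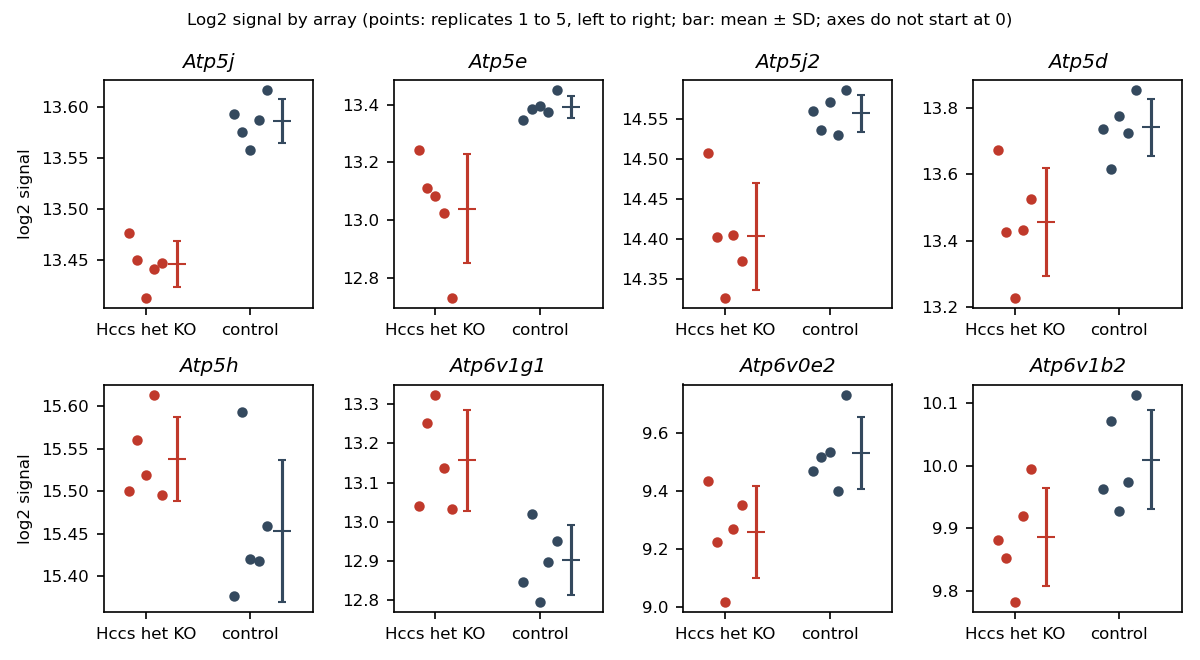
Log2 signal of 8 genes in each array, Hccs het KO left of control; points are replicates 1 to 5 from left to right and bars give the mean ± SD (n = 5 each). The groups separate for Atp5j, Atp5e and Atp5j2 (knockout lower) and for Atp6v1g1 (knockout higher), and overlap for Atp5d, Atp5h, Atp6v0e2 and Atp6v1b2.

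The 5 small membrane subunits all had negative changes, and none passed. Atp5j2 (subunit f) measured 14.51, 14.40, 14.33, 14.41 and 14.37 in the knockouts and 14.56, 14.54, 14.57, 14.53 and 14.59 in the controls, with no overlap (log2 change -0.15, SE 0.037, limma adjusted p = 0.0588). A second probe set of Atp5j2 gave nearly the same change, -0.16 (SE 0.036). Atp5k (subunit e), which takes part in pairing the enzymes, had a log2 change of -0.23 (SE 0.072). For Atp5mpl, the 6.8 kDa proteolipid, the change was -0.20 (SE 0.080), for Atp5md, a subunit also called DAPIT, -0.13 (SE 0.051), and for Atp5l (subunit g) -0.087 (SE 0.058). Another Atp5k probe set did not share the decrease (log2 change 0.057, SE 0.069).

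Subunit c, the proton-carrying ring, is encoded by 3 genes whose mature proteins are the same and whose mitochondrial targeting sequences differ. Atp5g2 measured 13.59, 13.31, 13.26, 13.43 and 13.51 in the Hccs het KO arrays and 13.59, 13.66, 13.55, 13.60 and 13.66 in the controls. The log2 change was -0.19 (SE 0.064). Atp5g3 measured 15.17, 15.01, 14.85, 15.05 and 15.01 in the knockouts, against 15.25, 15.07, 15.15, 15.25 and 15.31 in the controls, a log2 change of -0.18 (SE 0.065). For Atp5g1 the values were 13.95, 13.86, 13.75, 13.92 and 13.73 in the knockouts and 13.82, 13.84, 13.82, 13.82 and 13.96 in the controls, a change of -0.0078 (SE 0.052). All 3 pairs of groups overlapped and none of the 3 genes passed. The change of Atp5g1 exceeded that of Atp5g3 by 0.18 (SE 0.049, exact two-sided permutation p = 0.0159, adjusted p = 0.0952 over 12 paralogue pairs) and that of Atp5g2 by 0.18 (SE 0.062, exact permutation p = 0.0397, adjusted p = 0.159). Neither difference held after adjustment.

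Averaged over its genes, the ATP synthase was lower in every knockout array than in any control. As the mean deviation of the 17 genes from their 10-array means, the values were 0.018, -0.051, -0.18, -0.028 and -0.079 in Hccs het KO replicates 1 to 5 and 0.048, 0.042, 0.041, 0.057 and 0.13 in control replicates 1 to 5. The same mean over the 22 V-type genes was 0.024, 0.0043, -0.12, 0.0077 and 0.013 in the knockouts and -0.038, 0.012, -0.025, 0.033 and 0.094 in the controls, so the groups overlapped. Knockout replicate 3 was the lowest array for both families, and control replicate 5 the highest. Taking the V-type mean from the F-type mean within each array left -0.0058, -0.056, -0.058, -0.036 and -0.092 in the knockouts and 0.086, 0.030, 0.066, 0.025 and 0.041 in the controls. These values did not overlap, but this depended on the V-type genes below the array medians. Over the V-type genes above the medians alone, the V-type mean was 0.0142 in knockout replicate 1 and 0.0409 in control replicate 2. The F-type means of these 2 arrays were 0.0184 and 0.0415, so the differences of the 2 groups then overlapped. With 1 array left out the F-type median log2 change ran from -0.15 to -0.10.

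**Figure D3:**
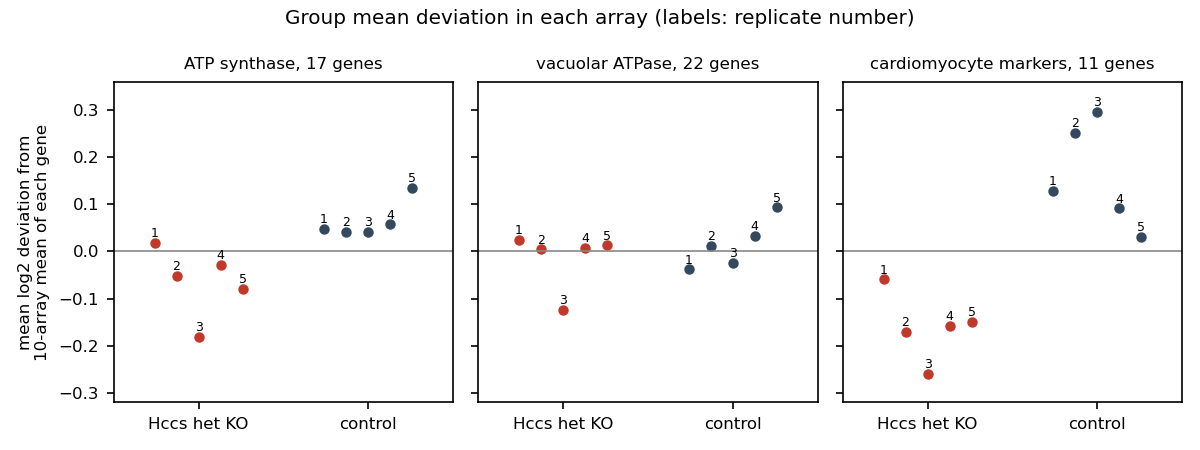
Mean log2 deviation from the 10-array mean of each gene, per array (numbers are replicates), for the 17 ATP synthase genes, the 22 vacuolar ATPase genes and 11 cardiomyocyte markers, Hccs het KO left of control. ATP synthase and the cardiomyocyte markers are lower in all knockout arrays than in all controls, and the vacuolar ATPase is not.

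Cardiomyocyte transcripts had changes of the same sign as most ATP synthase genes. All 11 cardiomyocyte markers (such as Tnnt2, Actc1 and Myh7) had a negative change with a median of -0.30. Of these, 4 (Myh7, Tnni1, Tnnc1 and Myl2) fell past the threshold, where 0.945% of all genes did. The summed linear signal of the 11 was 327000 to 362000 in the knockouts and 390000 to 423000 in the controls. None of the 11 was below the array medians, and in this respect the tissue matches its label. Among the other cell type markers, Tcf21, of epicardial cells and fibroblasts, rose by 0.61 on the log2 scale (SE 0.12, limma adjusted p = 0.0376), at 12.06 ± 0.08 in the knockouts and 11.45 ± 0.28 in the controls (SD, n = 5 each), and the other 7 of that list did not pass. No endothelial, smooth muscle, erythroid, macrophage or neuronal marker passed. The erythroid marker Hba-a1 (mean 2.57) and the neuronal marker Snap25 (mean 3.30) were below the array medians. Another erythroid marker, Hbb-y, had the highest mean of all genes (16.46), with a log2 change of -0.088 (SE 0.047), so the pooled hearts held blood cell RNA. At an unadjusted limma p under 0.05, where 7.48% of all genes were lower, so were 3 of 6 endothelial markers (Kdr -0.46, Cdh5 -0.29 and Tie1 -0.31). Lower at that level were also 2 of 4 smooth muscle markers (Acta2 -0.13 and Cnn1 -0.27) and 1 of 4 erythroid markers (Alas2 -0.64). The part of these shifts in the ATP synthase result was not tested, and in whole hearts fewer cells of a type and less RNA per cell cannot be told apart. The array control for 18S ribosomal RNA (5' end) read 7.84 to 8.57 in the knockouts and 8.06 to 11.4 in the controls, overlapping only through control replicate 3, and its part was not tested. Among control arrays, replicate 3 stood apart for neuronal markers: Tubb3 was 8.02 there and 3.19 to 5.30 in the other controls. Leaving out replicate 3 of both genotypes left F-type and V-type medians of -0.12 and -0.0052. Hccs itself was 10.81, 10.73, 10.90, 10.57 and 10.39 in the knockout arrays and 11.11, 11.31, 11.28, 11.20 and 11.25 in the controls (limma adjusted p = 0.0225).

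Among V-type genes the largest positive change belonged to Atp6v1g1, a G subunit of the stator stalks of V1. Its log2 signals were 13.04, 13.25, 13.32, 13.14 and 13.03 in the Hccs het KO arrays and 12.85, 13.02, 12.80, 12.90 and 12.95 in the controls. All knockout values lay above all controls, but the change of 0.25 (SE 0.067) did not pass (limma adjusted p = 0.0800). A second, dimmer probe set of the gene pointed the other way (log2 change -0.21, SE 0.11), so the direction of Atp6v1g1 depends on the probe set.

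Atp6v0e2, a small V0 subunit, had the largest negative change. It measured 9.43, 9.22, 9.02, 9.27 and 9.35 in the knockouts, against 9.47, 9.52, 9.53, 9.40 and 9.73 in the controls, with only knockout replicate 1 reaching into the control range (log2 change -0.27, SE 0.084, limma adjusted p = 0.122). Its paralogue Atp6v0e had a log2 change of -0.038 (SE 0.061). The 2 changes differed by 0.23 (SE 0.067, exact permutation p = 0.0159, adjusted p = 0.0952 over 12 pairs), which did not hold after adjustment.

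In the V1 sector, which binds and splits ATP, 8 of 12 genes had a positive change and 4 a negative one. Of the 9 above the array medians 5 were positive. The catalytic subunit Atp6v1a had a log2 change of 0.13 (SE 0.10). Its regulatory partner Atp6v1b2 measured 9.88, 9.85, 9.78, 9.92 and 9.99 in the knockouts and 9.96, 10.07, 9.93, 9.97 and 10.11 in the controls (log2 change -0.12, SE 0.050, limma adjusted p = 0.209). Atp6v1d, part of the rotor shaft, measured 11.88, 12.03, 11.99, 12.01 and 12.02 in the knockouts and 11.92, 11.95, 11.93, 11.88 and 11.92 in the controls (log2 change 0.069, SE 0.034). The changes of Atp6v1c1, Atp6v1e1, Atp6v1f and Atp6v1h, subunits C, E, F and H, were 0.0056, -0.065, 0.041 and -0.11 by their brightest probe sets. For these probe sets every unadjusted limma p was above the threshold. Dimmer probe sets of Atp6v1c1 had positive changes of 0.21 (SE 0.063) and 0.069 (SE 0.066). Only the larger of these changes was under the unadjusted threshold, and neither passed after adjustment.

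In the membrane V0 sector 7 of 8 genes had a negative change by their brightest probe sets. Atp6v0b, a proteolipid of the ring, had a log2 change of -0.18 (SE 0.12), Atp6v0a1, the a subunit isoform best known from neurons, of -0.16 (SE 0.10), Atp6v0d1 of -0.083 (SE 0.075) and Atp6v0a2 of -0.044 (SE 0.10). None was near the threshold. Other probe sets of Atp6v0a1, Atp6v0a2 and Atp6v0b had positive changes, so no direction is given for the sector.

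By their brightest probe sets, the genes of the accessory proteins differed by less than the spread between replicates. Atp6ap1, which is X-linked like Hccs, had log2 signals of 11.64, 11.70, 11.48, 11.63 and 11.63 in the Hccs het KO arrays and 11.55, 11.71, 11.53, 11.59 and 11.70 in the controls, a change of -0.0012 (SE 0.054). Atp6ap2, the (pro)renin receptor and also X-linked, had 12.60, 12.45, 12.39, 12.48 and 12.49 in the knockouts and 12.46, 12.56, 12.28, 12.64 and 12.60 in the controls, a change of -0.025 (SE 0.071). Dimmer probe sets of Atp6ap2 had positive changes of 0.14 (SE 0.064) and 0.10 (SE 0.0605), and neither passed.

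The paralogues known from specialised tissues were at the bottom of the signal scale in both groups. Atp6v0a4 and Atp6v1b1, known from acid-secreting cells of kidney, Atp6v0d2, known from osteoclasts, and Atp6v1c2 and Atp6v1e2, the last known from testis, had means of 1.82 to 3.06. That is below the array medians of 3.65 to 3.76. Their log2 changes lay between -0.0086 and 0.058, and signals this low cannot show whether the transcripts differed. Without these 5 genes the V-type median was -0.044, and 12 of 17 genes were negative. Atp6v1g2, a G subunit best known from brain, had a mean of 6.29 and a wide spread (SD 0.26 in the knockouts and 0.48 in the controls, n = 5 each). The 12 paralogue pairs gave no difference of change past an adjusted p of 0.05, with 3 at an unadjusted exact permutation p under it; in 6 of the pairs 1 gene was below the array medians.

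Probe sets of the same gene often disagreed in sign. Of 10 F-type genes with several probe sets above the array medians, 6 had probe sets of opposite sign, and so did 6 of 10 such V-type genes. For Atp5a1, Atp5g1 and Atp5g2 the opposite probe set was far dimmer than the brightest (means 8.23, 5.42 and 4.26). Its changes were 0.058 (SE 0.22), 0.21 (SE 0.16) and 0.013 (SE 0.060). For Atp5h, Atp5k and Atp5o the opposite probe set was bright too (means 14.18, 13.41 and 14.25). Over every probe set above the array medians the median log2 change was -0.13 for the F-type and 0.041 for the V-type. Among probe sets above the array medians, a second one of Atp5o had the largest change in size of either family: 14.12, 14.93, 14.73, 14.85 and 14.54 in the knockouts and 13.79, 14.02, 14.14, 13.79 and 13.60 in the controls. Only control replicate 3 exceeded the lowest knockout array, and its log2 change was 0.77 (SE 0.16, limma adjusted p = 0.0493 over 34945 probe sets), opposite to the brighter probe set of the gene. A second probe set of Atp6v1b2 measured 9.66, 9.81, 9.82, 9.85 and 9.91 in the knockouts and 9.29, 9.63, 9.55, 9.38 and 9.33 in the controls (log2 change 0.37, SE 0.074, limma adjusted p = 0.0441), again opposite to the brighter one. For Atp6v1d another probe set, at 11.17 to 11.33 in the knockouts and 10.80 to 11.10 in the controls, had a change of 0.35 (SE 0.062, limma adjusted p = 0.0289) in the same direction as the brightest probe set. By this fit 1.23% of all probe sets were called higher and 0.481% lower, 1.71% in all. The Atp5o probe set carries the suffix for probes that can match other transcripts, and the Atp6v1b2 probe set the suffix for probes shared between transcripts. One or the other of these suffixes also stands on 6 of the 17 brightest F-type probe sets (Atp5a1, Atp5c1, Atp5d, Atp5e, Atp5j2 and Atp5pb) and on 4 of the 22 brightest V-type ones (Atp6ap1, Atp6ap2, Atp6v0b and Atp6v1e1). Whether other transcripts contributed to any of them was not tested.

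**Figure D4:**
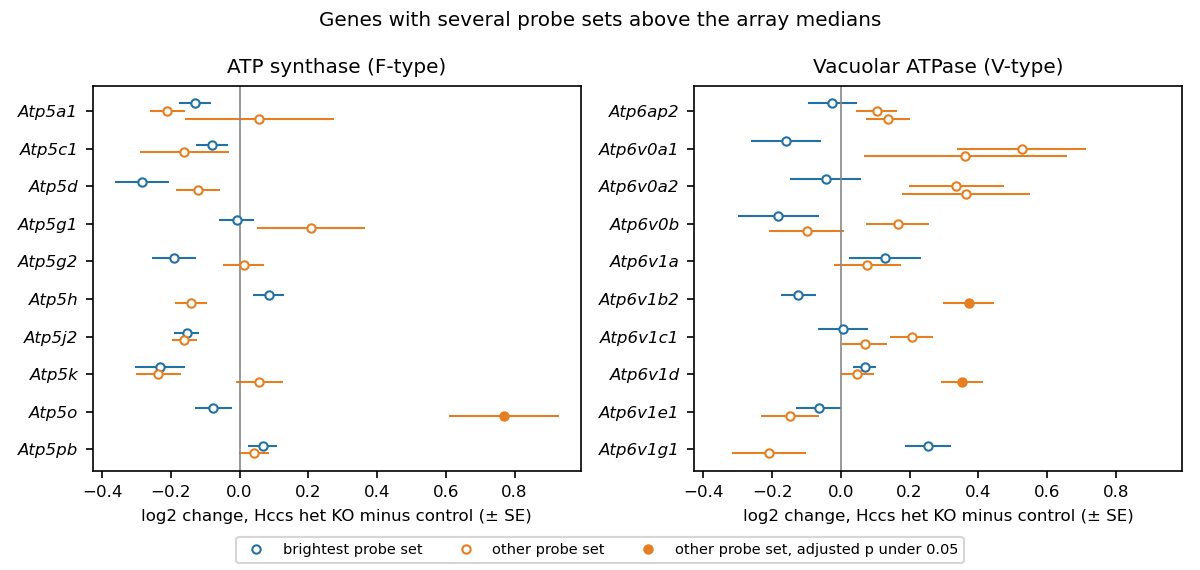
Log2 change (Hccs het KO minus control) with its standard error for every probe set above the array medians, for the genes that have several; blue marks the brightest probe set, orange the others, and filled points have an adjusted p under 0.05. Of the F-type probe sets 8 lie above 0, 1 of Atp5o farthest at 0.77. V-type probe sets of Atp6v1b2 and Atp6v1g1 fall on both sides of 0.

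Helpers of ATP synthase did not move with its subunits as a group. None of 9 genes of assembly, inhibition and substrate supply passed in limma, 5 had a negative change, and the median was -0.014, with 2 lower and 2 higher at an unadjusted p under 0.05. Slc25a4, the heart isoform of the ATP/ADP carrier and the brightest of them, had a log2 change of -0.11 (SE 0.037), with no overlap between groups. It was 1 of the 2 lower genes. The other, Slc25a3, named after its values were seen, had a change of -0.13 (SE 0.048), and its groups overlapped. Named after their values were seen, Atpaf1, which assembles the beta subunit into the head, had a change of 0.25 (SE 0.056, limma adjusted p = 0.0506) and Atpif1, the inhibitor that blocks ATP hydrolysis by the enzyme, of 0.27 (SE 0.074, limma adjusted p = 0.0871). Atpaf1 measured 10.73 ± 0.11 in the knockouts and 10.48 ± 0.07 in the controls, and Atpif1 14.46 ± 0.15 in the knockouts and 14.19 ± 0.08 in the controls (log2, mean ± SD, n = 5 each).

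A further list held 10 genes of vacuolar ATPase assembly and regulation. It includes Tcirg1, which encodes an a subunit of V0 (log2 change -0.068, SE 0.049). In this list Tmem199, which helps to assemble V0 in the endoplasmic reticulum, rose (log2 change 0.31, SE 0.067, limma adjusted p = 0.0445), where 1.63% of all genes did. Tmem199 measured 9.53 ± 0.13 in the knockouts and 9.22 ± 0.08 in the controls, and the groups overlapped. The other 9 did not pass, the median was -0.0044, and the brightest, Oxr1, had a change of -0.076 (SE 0.059). At an unadjusted limma p under 0.05, 1 of the 10 was lower and 1 higher. Named after its values were seen, the lower one, Rogdi, had a change of -0.28 (SE 0.070, limma adjusted p = 0.0686). Every knockout array of Rogdi lay below every control. Of 26 lysosomal genes 1 rose and 1 fell. At an unadjusted limma p under 0.05 there were 8, 4 lower and 4 higher, where 20.6% of all genes lay, and the groups did not overlap for 7, 4 lower and 3 higher, against 5.79% of all genes. Gla, alpha-galactosidase A, rose by 0.82 on the log2 scale (SE 0.11, limma adjusted p = 0.0137), and Scarb2, the membrane protein that carries glucocerebrosidase to lysosomes, fell by 0.27 on the log2 scale (SE 0.054, limma adjusted p = 0.0396). The brightest, the protease gene Ctsl, had a change of 0.15 (SE 0.045), and the median of the 26 was -0.047. The transcription factors Tfeb, Tfe3, Tfec and Mitf, which control lysosomal genes, gave no call, with 1 of 4 at an unadjusted limma p under 0.05; Mitf, the brightest, had a change of -0.27 (SE 0.082). Nor did any of 8 genes of the Ragulator and Rag complex, which signals from the lysosome to mTOR, although 1 of them, Lamtor5, the brightest, had an unadjusted p under 0.05 (log2 change 0.24, SE 0.078). Of 9 macrophage markers, genes of a lysosome-rich cell type, none passed, 2 had an unadjusted limma p under 0.05, and the median was 0.056.

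Promoter sequences were searched because 15 of 17 F-type changes shared a sign. The 250 bases before each start site in RefSeq (GRCm38.p6) were available for 15 F-type and 16 V-type genes, and 7 motifs were searched on both strands. The NRF1 motif, GCGCA and GCGC with any 1 base between them, was found for 4 of 15 F-type genes (Atp5c1, Atp5g2, Atp5h and Atp5k) and 2 of 16 V-type genes, and for 4.23% of 27025 genes. CCGGAAG, bound by GABPA (also called NRF-2), was likewise found for 4 F-type genes (Atp5e, Atp5h, Atp5j and Atp5l) and 2 V-type genes, and for 7.83% of all genes. CCAAT was found for 9 F-type and 5 V-type genes and for 37.5% of all genes. The E-box CACGTG was found for 4 F-type and 2 V-type genes (6.86% of all), while the longer CLEAR element, the same E-box with GT before it and AC after it and a site of TFEB, was found for no gene of either family (0.270% of all). TGATGNAA, the core of the amino acid response element, was found for no F-type and 1 V-type gene (3.91% of all), and TATAAA for 2 F-type genes and 1 V-type gene (14.3% of all). A match only says that these letters are in the window. The following windows of 120 bases are those of the gene with the largest decrease, the gene that passed the test, a gene with the NRF1 motif and, for contrast, the catalytic V-type subunit; capitals mark the motif match on either strand, written 5′ to 3′ on the gene's strand, the minus strand for all 4.
Atp5e, CCGGAAG, chr2:174464102-174464221: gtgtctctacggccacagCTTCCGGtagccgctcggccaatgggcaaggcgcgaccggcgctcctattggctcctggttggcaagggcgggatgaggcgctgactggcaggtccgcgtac
Atp5j, CCGGAAG, chr16:84834977-84835096: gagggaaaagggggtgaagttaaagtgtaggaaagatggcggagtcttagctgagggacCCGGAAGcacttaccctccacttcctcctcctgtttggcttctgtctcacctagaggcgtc
Atp5k, NRF1 motif, chr5:108434400-108434519: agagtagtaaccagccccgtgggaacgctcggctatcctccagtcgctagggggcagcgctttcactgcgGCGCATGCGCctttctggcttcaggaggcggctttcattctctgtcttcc
Atp6v1a, CACGTG, chr16:44139271-44139390: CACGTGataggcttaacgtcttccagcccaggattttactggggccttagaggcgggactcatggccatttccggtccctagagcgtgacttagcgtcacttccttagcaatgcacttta
RefSeq gives Atp5j more than 1 start site, and its window precedes the downstream one. Among the 11 F-type genes with an unadjusted p under 0.05 are both genes with and genes without each of the first 3 motifs.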

How the data were processed

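Total RNA of pooled embryonic hearts was labelled and hybridised to 10 Affymetrix mouse arrays, 5 per group. The deposited log2 values were made by the authors with RMA and Partek, per the submitters' processing notes; versions are not given in the sources used here. Values ran from 0.602 to 16.6, and no further normalization was applied. Arrays give no read depth, so their number limits the precision.

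Of 45101 probe sets, 34945 carried 1 gene symbol in the platform annotation, 932 carried several and were left out, and the brightest stood for each of 18193 genes. Groups were compared with limma 3.58.1 (R 4.3.3, lmFit and eBayes, two-sided) and called at a Benjamini-Hochberg adjusted p under 0.05. The fit was tested on simulated data. Paralogue pairs were compared by exact permutation over 252 splits, whose smallest p is 0.00794. All 39 members are named or counted; in the lists of assembly, lysosomal and signalling genes those that passed and the brightest were named, and cell type markers were given by counts with those that passed. The members and lists were chosen with earlier results of these data known. Replicates are separate pools, and same-numbered arrays of the 2 groups did not deviate together (r from -0.091 to 0.077). Alternatives covered scaling, filters, choice of probe set, array weights, thresholds, a replicate block, a hybridisation covariate and left-out arrays. Atp6v0c, Atp6v1g3 and the mitochondrially encoded subunits were not analysed here.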

Additional observations from a re-analysis of the deposited data

Results flagged for a closer look

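In 8 of 84 groups of 5 arrays 1 array stood far from the other 4, where chance gives about 1 in 20. Control replicate 5 was high for Atp5g1 (13.96, the others 13.82 to 13.84), for Atp5l (14.0, the others 13.78 to 13.84) and for the mean deviation of the ATP synthase genes (0.13). Hccs het KO replicate 3 was low for Atp6v1e1 (11.4) and for the mean deviation of the vacuolar ATPase genes (-0.12). Control replicate 3 was low for Atp6v1e1 as well (11.48). Hccs het KO replicate 1 was low for Atp6v1d (11.88) and high for Atp6v1e2 (3.27), a gene below the array medians.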

How the results depend on the processing

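The count of all genes called, 469, moved to 36 with the replicate block, 759 with a filter at the median level, 945 with array weights, 220 with the hybridisation controls as covariate, 30 without the arrays numbered 3, 14 at a threshold of 0.01 and 1160 at 0.1. It ran from 105 to 1042 with 1 array left out. The F-type genes called lower numbered 0 with the replicate block, with median centring, with the hybridisation covariate, at a threshold of 0.01 and without the arrays numbered 3. They numbered 4 with array weights and at a threshold of 0.1, and from 0 to 6 with 1 array left out, 6 without Hccs het KO replicate 1. With the most variable probe set, and likewise with every probe set, 1 F-type and 2 V-type genes or probe sets were called higher; V-type gave 1 with array weights and at a threshold of 0.1, and 0 lower throughout. Hccs was -0.55 with the replicate block (limma adjusted p = 0.0735), -0.55 and not past a threshold of 0.01, -0.59 without the arrays numbered 3 (adjusted p = 0.0714), and from -0.60 to -0.48 with 1 array left out, where the call was lost without Hccs het KO replicate 2 (adjusted p = 0.0517) or 4 (0.0563) and without control replicate 2 or 3 (0.0511 each). The F-type median log2 change was negative in all 24 alternatives, from -0.15 to -0.094, while the V-type median ran from -0.041 to 0.030 and was positive in 4. Of the single-gene values 794 kept direction and side of the threshold, 16 lost and 18 gained a call, and 60, of 5 F-type and 13 V-type genes, changed sign. With the most variable probe set the log2 changes of opposite sign were 0.058 for Atp5a1, 0.21 for Atp5g1, -0.14 for Atp5h, 0.10 for Atp5j2, 0.77 for Atp5o, 0.14 for Atp6ap2, 0.36 for both Atp6v0a1 and Atp6v0a2, 0.37 for Atp6v1b2 and -0.21 for Atp6v1g1, and only those of Atp5o and Atp6v1b2 passed. Of these values, that of Atp5j2 came from a probe set with a mean of 3.66, no higher than the array medians. Those of Atp5a1 and Atp5g1 came from probe sets with means of 8.23 and 5.42, far below the brightest of each gene. With the mean of probe sets the log2 changes of opposite sign were 0.10 for Atp5g1, -0.029 for Atp5h, 0.35 for Atp5o, 0.072 for Atp6ap2, 0.19 for Atp6v0a1, 0.22 for Atp6v0a2 and 0.13 for Atp6v1b2. The other sign changes were of values near 0. Array weights gave 0.0070 for Atp5g1, 0.011 for Atp6ap1, 0.0025 for Atp6v0a2, -0.0062 for Atp6v1b1, -0.012 for Atp6v1c1 and -0.0076 for Atp6v1e2. Without the arrays numbered 3, Atp5g1 was 0.0070, Atp6ap1 0.012, Atp6v0d1 0.0055 and Atp6v1b1 -0.0040. Median centring gave 0.0080 for Atp5g1, 0.015 for Atp6ap1 and 0.0072 for Atp6v0a4, quantile normalization -0.010 for Atp6v1b1, -0.015 for Atp6v1c1, -0.0012 for Atp6v1e2 and -0.0011 for Atp6v1f, and the hybridisation covariate 0.0099 for Atp6v0a2. With 1 array left out the ranges that crossed 0 were -0.035 to 0.019 for Atp5g1, -0.024 to 0.034 for Atp6ap1, -0.083 to 0.0085 for Atp6ap2, -0.14 to 0.0033 for Atp6v0a2, -0.025 to 0.0032 for Atp6v0a4, -0.076 to 0.0011 for Atp6v0e, -0.012 to 0.010 for Atp6v1b1, -0.047 to 0.046 for Atp6v1c1 and -0.019 to 0.085 for Atp6v1e2. The causes were not tested. Signals below the array medians limit what 5 V-type genes can show.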
